A study of Rattus norvegicus with 3 samples.

Results

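Differentiating oligodendrocyte nuclei were 125 of the 51647 nuclei recovered from whole brains of female Crl:CD(SD) wild-type rats aged 12 weeks. They were chosen by their own UMI counts (unique molecular identifiers, each standing for 1 captured RNA molecule). A nucleus was taken when it held at least 2 UMIs summed over Enpp6, Gpr17, Bmp4 and Neu4 and at least 1 UMI of Bcas1, Fyn or Tmem163. It also had 0 UMIs of Pdgfra, 0 UMIs of the vesicular glutamate transporters Slc17a7 and Slc17a6 and of the GABA-synthesis genes Gad1 and Gad2, and at most 4 UMIs over the neuronal genes Syt1, Snap25 and Rbfox3. The rats had received an intraperitoneal injection 7 h before harvest, of the bacterial endotoxin lipopolysaccharide (LPS, 5 mg per kg), of the synthetic double-stranded RNA poly(I:C) (12 mg per kg) or of saline. Nuclei of 4 rats were pooled into 1 library per treatment, so that 58 of the differentiating nuclei came from LPS rats, 24 from poly(I:C) rats and 43 from saline rats, and no comparison between treatments has a replicate or a test. Levels are given as CPM, the UMIs of a gene per 1000000 UMIs, summed over the nuclei of a gate in a library, and they are compared within a gene or within a fixed list, never between genes, since transcript length was not taken into account. Intervals in square brackets are exact 95% intervals that cover counting error only.

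Oligodendrocytes, the myelin-forming glia of the brain, arise from precursor cells that carry the growth factor receptor Pdgfra. On leaving the cell cycle a precursor loses Pdgfra and passes through a short-lived premyelinating state, in which it extends many processes and either contacts an axon and starts to wrap it or dies. In mice this state is known for Gpr17, a G protein-coupled receptor present early in it, for Enpp6, a choline phosphodiesterase of newly forming oligodendrocytes, and for Bcas1, a cytoplasmic protein of early myelinating cells. Type I interferons, which double-stranded RNA elicits, act on nearly all brain cells through a shared receptor and switch on antiviral genes.

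The levels of the genes by which the nuclei were chosen are a description. Enpp6 stood at 1904, 2584 and 2348 CPM in differentiating nuclei of the LPS, poly(I:C) and saline libraries and carried most of the first criterion, with 137, 52 and 77 UMIs in these libraries. Neu4, a lysosomal sialidase, followed with 29, 6 and 19 UMIs, the growth factor gene Bmp4 with 11, 2 and 9, and Gpr17 with 9, 2 and 11. Enpp6 had a UMI in 81.0%, 91.7% and 88.4% of the differentiating nuclei, against 0.252%, 0% and 0% of excitatory neuron nuclei in the same libraries, although the neuronal nuclei were deeper (median 4065, 2280 and 2118 UMIs, against 1246.5, 662.5 and 677 in the differentiating nuclei). Precursor nuclei held Enpp6 at 16.9, 0 and 17.9 CPM, and mature oligodendrocyte nuclei at 58.0, 49.7 and 81.9 CPM. Both of these gates allowed at most 1 UMI of the 4 commitment genes, so their low Enpp6 was set by the gates. Bcas1 reached 9240, 9142 and 9055 CPM in differentiating nuclei, against 1767, 2093 and 1490 CPM in precursor nuclei and 1295, 1119 and 1132 CPM in mature nuclei. At the edge of the rule, 69 of the 125 nuclei had exactly 2 UMIs of the 4 commitment genes and 201 nuclei that met the other criteria had exactly 1. The neuronal limit was reached by 5 nuclei with exactly 4 UMIs, and 3 nuclei just outside had 5. A further 7 nuclei met every criterion but the absence of Pdgfra, 6 of them in the LPS library, 0 in the poly(I:C) library and 1 in the saline library.

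The libraries differed in depth and size. The LPS, poly(I:C) and saline libraries held 11211, 15001 and 25435 nuclei with a median of 2436, 1264 and 1165 UMIs, and the differentiating nuclei summed to 71971, 20126 and 32801 UMIs. Between 247 and 550 barcode sequences occurred in a pair of libraries, and 0 of them were differentiating nuclei in both. The list of mature oligodendrocyte markers stood at 9309, 7702 and 8262 CPM in differentiating nuclei, against 14439, 11327 and 11761 CPM in mature nuclei, and the precursor list at 3668, 2882 and 2652 CPM, against 10886, 11258 and 10016 CPM in precursor nuclei. The mature list includes Mog, Mag, Aspa, Opalin, Ermn and Hapln2, by which mature nuclei were chosen. The precursor list includes Pdgfra, required in precursor nuclei and excluded from differentiating ones. These differences were therefore partly set by the gates. Among markers of other cell types, T or NK cell and erythroid lists had 0 UMIs in differentiating nuclei of all 3 libraries. The endothelial list summed to 3, 1 and 0 UMIs, the mural list to 2, 3 and 3, the fibroblast list to 7, 4 and 0, the ependymal list to 1, 0 and 3, the choroid plexus list to 2, 0 and 9, the striatal projection neuron list to 2, 0 and 1, the neutrophil list to 2, 0 and 0, the excitatory neuron list to 7, 5 and 7, and the microglia or macrophage list to 17, 2 and 6. Astrocyte markers summed to 44, 14 and 8 UMIs (611, 696 and 244 CPM), with Gja1, Gjb6, Fgfr3 and Ntsr2 at 0 in all 3 libraries and Slc1a2 found in all 3. Inhibitory neuron markers summed to 173, 27 and 62 UMIs, with Gad1, Gad2, Slc32a1, Sst, Vip and Lhx6 at 0 in all 3. All of these UMIs came from the remaining measured marker, Adarb2, found in 77.6%, 54.2% and 58.1% of the differentiating nuclei. Gad1 and Gad2 were at 0 by the rule. The pan-neuronal list stood at 8795, 13266 and 13140 CPM in differentiating nuclei, against 14606, 15949 and 20302 CPM in precursor nuclei.

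Differentiating nuclei made up 0.517% [0.393 to 0.668] of the LPS library, 0.160% [0.103 to 0.238] of the poly(I:C) library and 0.169% [0.122 to 0.228] of the saline library. The share in LPS was 3.06 times that in saline [2.03 to 4.65], and the share in poly(I:C) 0.946 times [0.549 to 1.59]. The LPS library also had the highest median depth. With every nucleus thinned to 1000 UMIs and shallower ones left out, 33 of 9310 LPS nuclei, 3 of 10238 poly(I:C) nuclei and 7 of 15285 saline nuclei passed, an LPS share 7.74 times that of saline [3.37 to 20.7]. The differentiating nuclei had medians of 1246.5, 662.5 and 677 UMIs in LPS, poly(I:C) and saline. The cut at 1000 thus fell above the median in poly(I:C) and saline and below it in LPS. The part of this unequal loss in the larger ratio was not tested. Precursor nuclei (at least 1 UMI of Pdgfra, 2 over Pdgfra, Cspg4 and Vcan, and at most 1 of the commitment genes) numbered 181, 69 and 74, and mature nuclei (at least 2 UMIs over Mog, Mag, Aspa, Opalin, Ermn and Hapln2, no Pdgfra, at most 1 commitment UMI) 679, 167 and 344. Of the nuclei in these 3 lineage gates together, differentiating nuclei were 6.32% [4.83 to 8.09] in LPS, 9.23% [6.0 to 13.4] in poly(I:C) and 9.33% [6.83 to 12.4] in saline. The ratio of LPS to saline was therefore above 1 per nucleus of the library and 0.677 [0.449 to 1.03] per nucleus of the lineage, and with 1 library a group the shares of cells in the tissue and of nuclei recovered cannot be told apart.

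The next comparison set the differentiating nuclei against the stages before and after them, with the 3 libraries as blocks. Genes used in any gate were left out. Because the gates follow the lineage, other genes that mark its stages had to move with them, so the tests describe what accompanied the gate genes and are not independent evidence for the stage. The 3 libraries stand for 3 treatments, and the block takes out differences that the gates of a library share. The p-values therefore measure only how the differences between gates varied over these 3 libraries. That spread was estimated with information shared over all genes tested. Of 1947 genes tested with edgeR's quasi-likelihood test and Benjamini-Hochberg adjustment, 332 (17.1%) were higher in differentiating than in precursor nuclei and 354 (18.2%) lower. Against mature nuclei 259 genes (13.3%) were higher and 257 (13.2%) lower. The counts of list genes below stand beside these shares of all genes, and a count near them says nothing particular of its list. The committed and newly formed oligodendrocyte list, chosen with earlier results of these data known, had 15 of 16 tested genes higher than in precursors and 15 of 16 higher than in mature nuclei, with median log2 fold changes of 3.05 and 2.76 against medians of -0.01 and -0.07 over all genes.

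Frmd4a, a scaffold of the actin cytoskeleton and cell junctions, was among the genes that marked the stage in both directions. It stood at 23843, 29812 and 27164 CPM in differentiating nuclei of the LPS, poly(I:C) and saline libraries, at 597, 890 and 951 CPM in precursor nuclei and at 692, 1682 and 1594 CPM in mature nuclei. All 3 libraries had it far above both neighbouring stages, 33.9-fold over precursors (log2 5.08 ± 0.26 (SE), adjusted p = 8.29e-21 by edgeR) and 23.0-fold over mature nuclei (log2 4.53 ± 0.24, adjusted p = 5.85e-20). Within the libraries the median nucleus held 35.5, 25 and 19 UMIs of Frmd4a and the richest 74, 52 and 56. The poorest held 0 in each library, and a UMI of Frmd4a was found in 50 of 58, 23 of 24 and 41 of 43 nuclei. Tmem108, a transmembrane protein, behaved alike, at 7336, 6608 and 8933 CPM in differentiating nuclei against 135, 192 and 323 CPM in precursors and 119, 191 and 276 CPM in mature nuclei. Its folds were 38.7 over precursors and 44.6 over mature nuclei (edgeR adjusted p = 8.29e-21 and 7.22e-23). A UMI of Tmem108 was found in 45, 22 and 41 of the differentiating nuclei. Sema5a, a guidance molecule of the semaphorin family, stood at 1973, 1938 and 1982 CPM in differentiating nuclei, against 535, 337 and 431 CPM in precursors and 132, 124 and 197 CPM in mature nuclei, and was higher than in both.

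**Figure D1:**
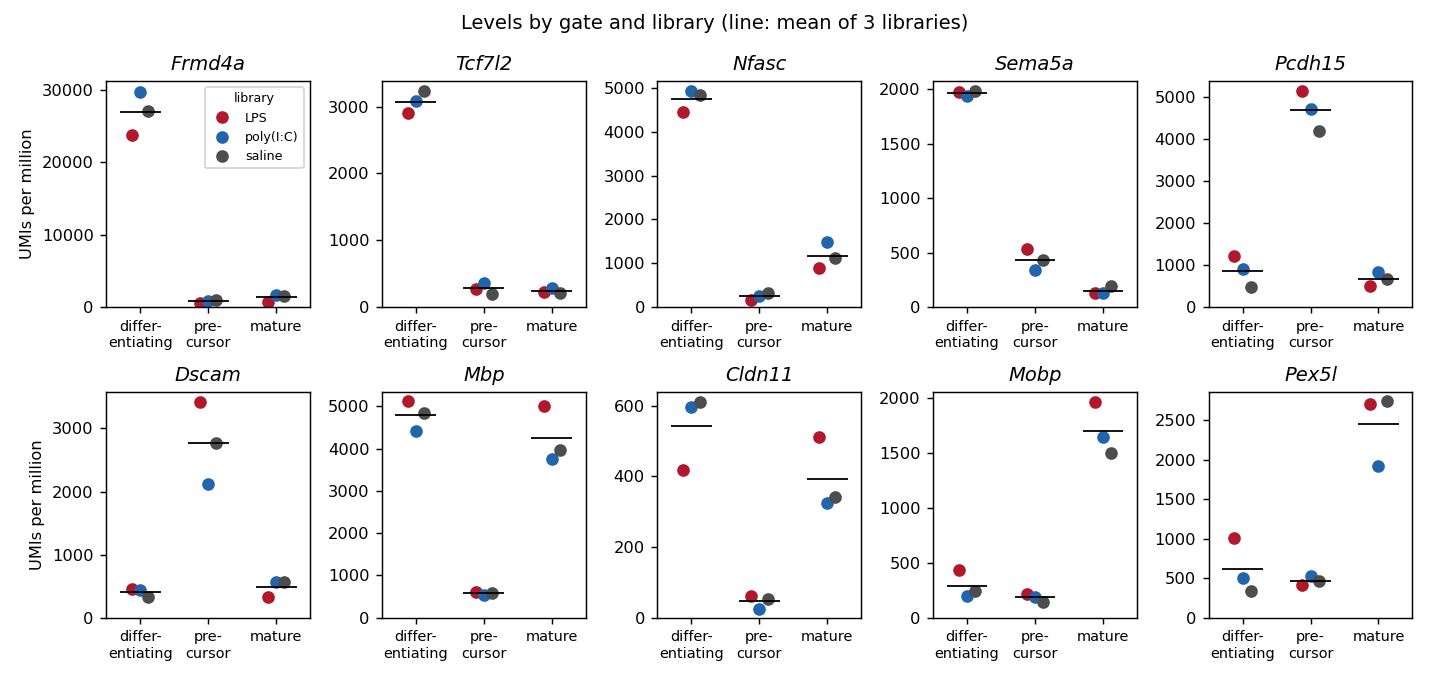
Levels (CPM) of 10 genes in differentiating, precursor and mature oligodendrocyte nuclei, with 1 point per library (LPS, poly(I:C), saline) and a line at the mean of the 3. Frmd4a and Tcf7l2 peaked in the differentiating nuclei, Mbp and Cldn11 stood far above precursor nuclei and did not pass the test against mature nuclei, and Mobp and Pex5l were higher in mature nuclei.

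Transcription factors and other activators of differentiation were tested as a list of 17 genes, of which 8 were higher and 0 lower than in precursors, and 4 higher and 1 lower than in mature nuclei. Tcf7l2, a partner of β-catenin that drives the exit from the precursor state in mice, had 2904, 3081 and 3232 CPM in differentiating nuclei, against 276, 361 and 197 CPM in precursors and 222, 290 and 212 CPM in mature nuclei (log2 3.48 and 3.78, edgeR adjusted p = 7.05e-16 and 5.00e-19). Its level was thus at least 2904 CPM in each library here and at most 361 CPM in the neighbouring stages. The tubulin deacetylase Sirt2 (log2 3.53 over precursors and 2.14 over mature nuclei), the thyroid hormone receptor Thra (2.45 and 1.39) and the mTORC2 subunit Rictor (1.88 and 1.54) were also higher than in both. Zeb2, a zinc finger repressor required for myelination in mice, was higher than in precursors (log2 1.37) and did not pass the test against mature nuclei (log2 0.12 ± 0.19, adjusted p = 0.720 by edgeR). Myrf, which activates myelin genes, stood at 333, 298 and 183 CPM in differentiating nuclei, against 45.0, 72.2 and 108 CPM in precursors and 204, 191 and 212 CPM in mature nuclei. It was higher than in precursors (log2 2.17, adjusted p = 9.25e-05 by edgeR), a call that was lost without the LPS library (log2 1.31, adjusted p = 0.143). The list of inhibitors had 0 of 9 genes higher and 4 lower than in precursors, among them Sox5 (log2 -2.60), and 1 higher and 3 lower than in mature nuclei. Sox6, a partner of Sox5, was the one higher: 1834, 745 and 1372 CPM in differentiating nuclei, against 250, 331 and 279 CPM in mature nuclei (log2 2.40, edgeR adjusted p = 5.31e-11) and 1734, 1347 and 1490 CPM in precursors (log2 -0.14, adjusted p = 0.693). Sox5, with 181, 248 and 183 CPM in differentiating nuclei against 1272, 1515 and 880 CPM in precursors, was low in all 3 libraries, while Sox6 was lower than in precursors in the poly(I:C) and saline libraries alone.

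Myelin genes differed among themselves. Of 22 tested, 13 were higher and 2 lower than in precursors (median log2 1.02), while 3 were higher and 12 lower than in mature nuclei (median -0.78). Mbp, the myelin basic protein gene, stood at 5113, 4422 and 4847 CPM in differentiating nuclei, against 602, 529 and 592 CPM in precursors and 5009, 3762 and 3974 CPM in mature nuclei. It was higher than in precursors (log2 3.08 ± 0.23, edgeR adjusted p = 5.87e-15) and did not pass the test against mature nuclei (log2 0.26 ± 0.19, adjusted p = 0.359). The tight junction gene Cldn11 was higher than in precursors (log2 3.28). Against mature nuclei its libraries differed in direction, with 417, 596 and 610 CPM in differentiating nuclei of the LPS, poly(I:C) and saline libraries against 512, 323 and 343 CPM in mature nuclei. It did not pass that test (log2 0.41, edgeR adjusted p = 0.358) but did without the LPS library (log2 0.93, adjusted p = 0.0380). Mobp, the myelin-associated oligodendrocyte basic protein, differed: 431, 199 and 244 CPM in differentiating nuclei, against 220, 192 and 144 CPM in precursors (log2 0.78, edgeR adjusted p = 0.0627) and 1963, 1641 and 1493 CPM in mature nuclei (log2 -2.36 ± 0.25, adjusted p = 2.77e-10). With at most 1 neuronal UMI in every gate, Mobp was higher than in precursors (log2 1.17, edgeR adjusted p = 0.00659). Mal, a proteolipid of myelin (log2 -2.67), carbonic anhydrase Car2 (-2.12), Pex5l (-1.82), Apod (-1.77) and transferrin Tf (-1.44) were likewise lower than in mature nuclei. Ugt8, which makes galactosylceramide for myelin, was higher than in precursors (log2 2.35). Its excess over mature nuclei (log2 0.81, edgeR adjusted p = 0.0104) did not pass without the saline library (0.60, adjusted p = 0.241). Cholesterol and lipid synthesis genes had 5 of 10 higher and 0 lower than in precursors, where 17.1% and 18.2% of all genes were. Against mature nuclei 2 were higher and 1 lower, near the 13.3% and 13.2% of all genes.

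**Figure D2:**
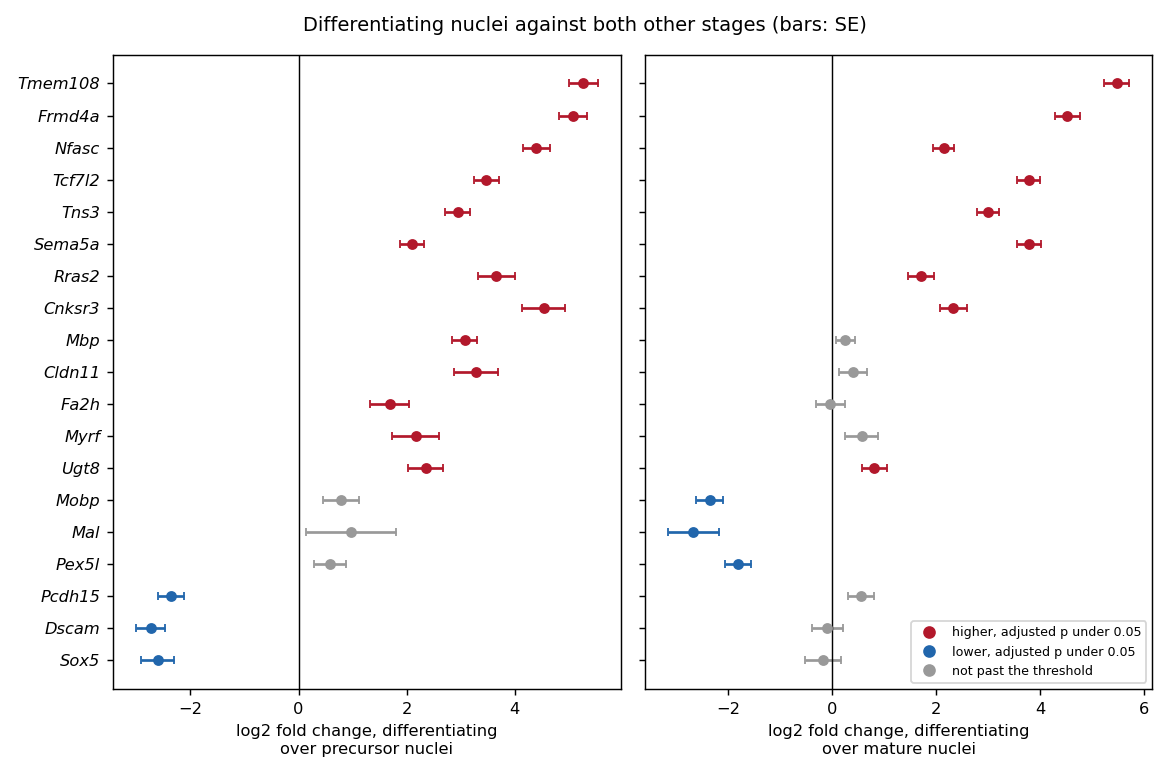
Log2 fold changes (± SE) of 19 genes in differentiating nuclei over precursor nuclei (left) and over mature nuclei (right), from the edgeR fit over 3 libraries. Red marks genes that were higher and blue genes that were lower at an adjusted p below 0.05, and grey marks the others, such as Mbp and Cldn11 against mature nuclei.

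Genes of the cytoskeleton and of process growth had 12 of 25 higher and 3 lower than in precursors, and 7 higher and 2 lower than in mature nuclei. The shares over all genes were 17.1% and 18.2% against precursors, and 13.3% and 13.2% against mature nuclei. Arhgap35, a GTPase-activating protein and a target of the kinase Fyn in oligodendrocytes, was higher than in both (log2 1.76 and 2.55), as were the formin Fmnl2 (2.18 and 1.49) and the microtubule protein Map1b (1.62 and 1.21). The tubulin Tubb4a was higher than in precursors (log2 2.57) and did not pass the test against mature nuclei (log2 0.02 ± 0.30, edgeR adjusted p = 0.983). Pak1, a kinase downstream of Rac, was lower than in mature nuclei (log2 -3.12). Other genes of this stage with small GTPase or adhesion roles were Tns3, a tensin at focal adhesions (log2 2.95 over precursors and 3.00 over mature nuclei), the Rac GTPase-activating protein Chn2 (3.19 over precursors), Rras2 (3.66) and Cnksr3 (4.54).

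Adhesion and guidance genes moved in both directions: of 40 tested, 15 were higher and 19 lower than in precursors, and 16 higher and 7 lower than in mature nuclei. Nfasc, the neurofascin through which oligodendrocytes attach to axons, had 4460, 4919 and 4847 CPM in differentiating nuclei, against 158, 241 and 323 CPM in precursors and 901, 1475 and 1125 CPM in mature nuclei (log2 4.40 and 2.15, edgeR adjusted p = 1.32e-18 and 4.20e-12). Sema4d, a transmembrane semaphorin, had 889, 745 and 1098 CPM in differentiating nuclei, against 50.7, 120 and 71.8 CPM in precursors and 207, 290 and 242 CPM in mature nuclei. The semaphorin receptor Plxnb3 (log2 3.23 and 2.49) and the ephrin receptor Ephb1 (2.81 and 1.72) were higher than in both stages. Tenascin-R (Tnr, log2 3.58) and the adhesion molecule Opcml (2.80) stood out against mature nuclei. Of the genes that were lower, Pcdh15, a protocadherin of precursors, had 1223, 894 and 488 CPM in differentiating nuclei, against 5145, 4715 and 4182 CPM in precursors (log2 -2.36, edgeR adjusted p = 9.39e-11) and 492, 837 and 674 CPM in mature nuclei (log2 0.55, adjusted p = 0.111). With at most 1 neuronal UMI in every gate it was higher than in mature nuclei (log2 0.93, edgeR adjusted p = 0.00540). Dscam (log2 -2.74), the netrin receptor Dcc (-2.69), Robo1 (-2.07) and the secreted Nxph1 (-3.03) were lower than in precursors. The precursor list as a whole had 0 of 14 higher and 10 lower than in precursors, and 4 higher and 1 lower than in mature nuclei.

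Ion channels and transmitter receptors, through which precursors sense neuronal activity, had more genes lower than higher: 2 of 35 were higher and 20 lower than in precursors (median log2 -1.16), and 1 was higher and 11 lower than in mature nuclei (median -0.63). The potassium channel Kcnd2 (log2 -2.42), the AMPA receptor subunit Gria4 (-1.67), the potassium channel Kcnq5 (-1.71) and the L-type calcium channel Cacna1c (-2.68) were lower than in precursors. Grm3, a metabotropic glutamate receptor, was lower than in mature nuclei (log2 -2.25). Grik2 was an exception, a kainate receptor subunit, with 6989, 4969 and 6524 CPM in differentiating nuclei, against 2223, 1347 and 2010 CPM in precursors and 2196, 2237 and 2342 CPM in mature nuclei (log2 1.73 and 1.52, edgeR adjusted p = 3.59e-09 and 2.62e-08). The pan-neuronal markers were also lower in differentiating than in precursor nuclei of all 3 libraries (values above). Mature nuclei had them at 8204, 14393 and 15846 CPM, above the differentiating nuclei in poly(I:C) and saline and below them in LPS. The pan-neuronal and channel lists share Kcnip4, and Syt1, Snap25 and Rbfox3 were limited by all 3 gates, so they are not separate measures. The part of neuronal RNA in the result was not tested. The genes named from the activator, inhibitor, cytoskeleton, adhesion, channel and interferon lists were chosen after their values were seen.

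Most differentiating nuclei held Enpp6 and no Gpr17. Enpp6 without Gpr17 was found in 45, 21 and 31 nuclei of the LPS, poly(I:C) and saline libraries, Gpr17 without Enpp6 in 5, 1 and 2, both genes in 2, 1 and 7 and neither in 6, 1 and 3. The sums of the Gpr17 nuclei were small, at 3926, 1401 and 1263 UMIs, against 57761, 17777 and 23847 UMIs in the Enpp6 nuclei, and 122 genes could be tested. Of these, 0 (0.0%) were higher and 1 (0.82%) was lower in Enpp6 nuclei by edgeR, as by DESeq2, and 23 genes had an unadjusted p below 0.05 by edgeR. The lower gene was Pcdh15, with 33, 7 and 6 UMIs in Enpp6 nuclei against 14, 9 and 2 UMIs in Gpr17 nuclei, or 406 ± 160 CPM against 3858 ± 2433 CPM (SD, n = 3 libraries). The difference was log2 -2.98 ± 0.73 (edgeR adjusted p = 0.00661), and without the LPS, the poly(I:C) or the saline library the adjusted p was 0.0752, 0.124 and 0.0992. Mbp was on the other side without passing the test (log2 2.52, edgeR adjusted p = 0.0682). It passed with DESeq2's size factors in edgeR (log2 2.55, adjusted p = 0.0432), with no filter on low counts (4.31, adjusted p = 0.0219), without the library block (2.63, adjusted p = 0.00494) and without the poly(I:C) library (3.16, adjusted p = 1.55e-05).

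Under poly(I:C), interferon-stimulated genes were 9 of the 12 genes whose higher level was the clearest. Of 1071 genes with at least 10 UMIs over both libraries, 100 (9.34%) were at least 2-fold higher in differentiating nuclei of the poly(I:C) library and 128 (12.0%) at least 2-fold lower, and the interval of the ratio left out 1 as well for 36 (3.36%) and 25 (2.33%). The median gene differed by log2 -0.03. Of the interferon-stimulated list, 76 genes were in the table and 9 had at least 10 UMIs over both libraries, and 9 of 9 were at least 2-fold higher (median log2 3.12, in which 7 genes enter at their lower bound). Each of the 9 had at most 1 UMI in saline and at least 10 in poly(I:C), so it met the minimum only through the library where it is high. The count of 9 and the median therefore follow in part from the minimum, which the sum over the list does not use. Summed over the list, differentiating nuclei held 51 UMIs in LPS, 258 in poly(I:C) and 12 in saline, or 709, 12819 and 366 CPM. This was 35.0-fold [19.7 to 68.7] over saline in poly(I:C) and 1.94-fold [1.02 to 3.99] in LPS, while LPS stood at 0.0553 [0.0401 to 0.0749] of poly(I:C). A UMI was found for 27, 47 and 8 genes of the list.

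Mx1, a dynamin-like GTPase that traps viral nucleocapsids, had 0 UMIs in LPS, 23 UMIs in 11 of the 24 poly(I:C) nuclei and 0 in saline. Against a floor of 3 counts in the saline library this was at least 12.5-fold higher. Usp18, which removes the ubiquitin-like ISG15 and damps interferon receptor signalling, had 20 UMIs in poly(I:C) against 0 in saline (at least 10.9-fold higher). Ifi44 had 16 against 0 UMIs (at least 8.69-fold), Mx2 15 against 0 (at least 8.15-fold), and the ISG15 ligase Herc6 13 against 0 (at least 7.06-fold). The RNA-editing enzyme Adar and the ADP-ribosyltransferase Parp12 each had 10 against 0 UMIs (at least 5.43-fold). The ring-finger ATPase Rnf213 had 25 against 1 UMIs, a ratio of 40.7 [6.67 to 1673], and Parp9 14 against 1, a ratio of 22.8 [3.47 to 965]. In the LPS library Usp18 had 1 UMI and Rnf213 had 4. Stat4, a transcription factor of cytokine signalling outside the list, had 10 UMIs in LPS, 22 in poly(I:C) and 0 in saline (at least 12.0-fold higher in poly(I:C)). Its ratio of poly(I:C) to saline was 14.7 [4.62 to 75.1] in precursors, 17.1 [7.27 to 48.9] in mature nuclei and 3.96 [1.83 to 9.28] in excitatory neurons.

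Promoters of these 9 genes were looked up in RefSeq sequence of build GRCr8, from 250 bases before to 50 bases after the gene start, and 6 matched. The core of the interferon-stimulated response element, GAAANNGAAA on either strand, occurred in 2 of the 6 and in 1312 of all 33469 promoters of that length (3.92%), and no other motif was searched. A match is a description of the sequence and no evidence of binding, and its absence from this window for Mx1, Rnf213, Herc6 and Parp9 says nothing of their control. Both promoters with a match are printed 5′ to 3′ on the gene's strand (minus), with the match in capitals, because their genes had 0 UMIs in saline and at least 10 in poly(I:C). Ifi44 (chr2:243303791-243304090) has a match that begins 26 bases before the start and another 26 bases after it, and Parp12 (chr4:68850492-68850791) has one that begins 18 bases before it.
Ifi44: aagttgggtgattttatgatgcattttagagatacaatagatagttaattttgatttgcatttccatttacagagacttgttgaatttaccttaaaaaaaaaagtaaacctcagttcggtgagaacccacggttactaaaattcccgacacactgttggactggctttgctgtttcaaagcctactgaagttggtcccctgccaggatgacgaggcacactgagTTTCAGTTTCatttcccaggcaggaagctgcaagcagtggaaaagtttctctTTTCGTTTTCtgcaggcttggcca
Parp12: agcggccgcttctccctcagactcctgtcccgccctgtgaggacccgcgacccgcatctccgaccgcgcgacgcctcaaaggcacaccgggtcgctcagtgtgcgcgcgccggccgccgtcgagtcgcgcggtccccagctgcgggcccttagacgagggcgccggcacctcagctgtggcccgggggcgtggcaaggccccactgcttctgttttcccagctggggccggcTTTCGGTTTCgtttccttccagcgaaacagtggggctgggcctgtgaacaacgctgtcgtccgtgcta

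The interferon-stimulated list was found across most poly(I:C) nuclei. In the poly(I:C) library differentiating nuclei held a median of 6.5 UMIs of the list (range 0 to 38), and 22 of 24 held at least 1, against 27 of 58 in LPS and 11 of 43 in saline. With every nucleus thinned to 400 UMIs, which left out 0 nuclei, the share with a UMI of the list was 19.0% in LPS, 83.3% in poly(I:C) and 9.30% in saline. In excitatory neuron nuclei treated the same way it was 17.6%, 33.3% and 16.4%, so that the LPS and saline shares of the differentiating nuclei lay at or near that level and can be background, and only the poly(I:C) share lay clearly above (95% intervals 62.6 to 95.3 in differentiating and 26.1 to 41.2 in neuronal nuclei). Precursor nuclei reached 50.3%, 100% and 28.4%, and mature nuclei 23.4%, 70.7% and 18.9%. As levels, the list stood in the poly(I:C) library at 12819 CPM in differentiating, 16478 CPM in precursor, 7690 CPM in mature and 1166 CPM in excitatory neuron nuclei. The ratio of poly(I:C) to saline was 35.0 in differentiating nuclei, 16.1 [12.3 to 21.5] in precursors, 11.8 [10.0 to 13.9] in mature nuclei and 2.96 [2.54 to 3.46] in excitatory neurons. The saline sum behind the first ratio is 12 UMIs. In the test over libraries, Usp18 (log2 2.26), Rnf213 (1.22), Ifi44 (1.65) and Mx1 (1.38) were 4 of 18 list genes higher in differentiating than in mature nuclei, against 13.3% of all genes, and Herc6 (log2 -1.41) was 1 of 18 lower than in precursors, against 18.2% of all genes. These calls rest on the poly(I:C) library, where most of the UMIs are, and were lost without the library block (edgeR adjusted p between 0.386 and 0.682). With DESeq2 the adjusted p was 0.0560 for Rnf213, 0.0760 for Mx1 and 0.141 for Herc6.

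**Figure D3:**
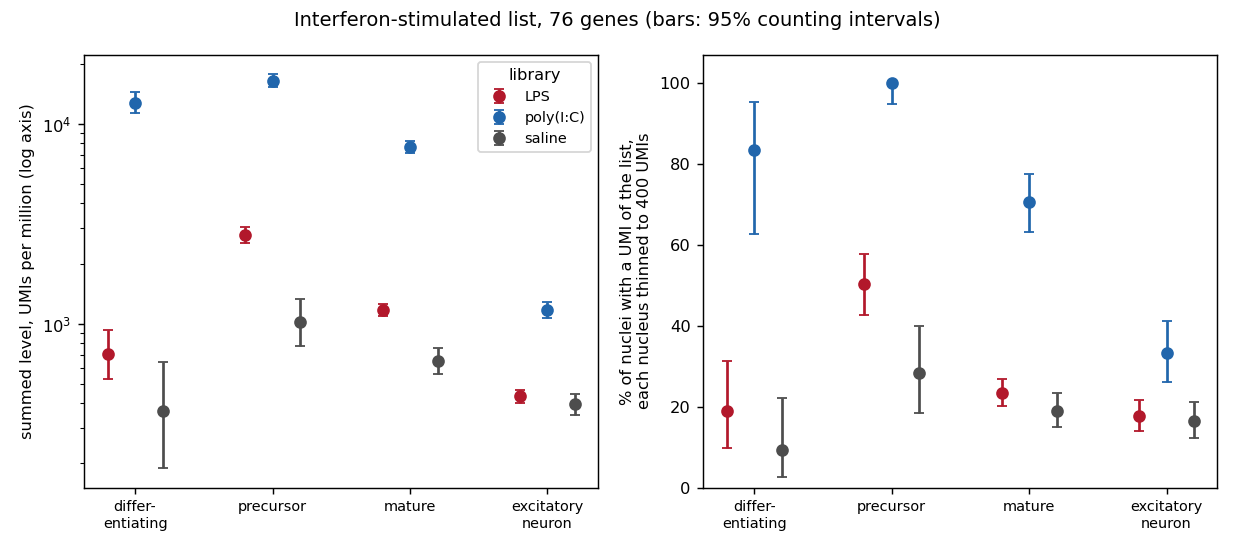
Summed level of the interferon-stimulated list (CPM, log axis) and share of nuclei with at least 1 UMI of the list after thinning to 400 UMIs (percent), by gate and library, with 95% counting intervals. The poly(I:C) library stands above LPS and saline in each gate, least in the excitatory neuron nuclei.

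Other immune genes were scarcely detected. Cytokines and chemokines summed to 18, 6 and 10 UMIs in differentiating nuclei of the LPS, poly(I:C) and saline libraries, NF-kB targets to 26, 4 and 7, acute phase and STAT3 genes to 25, 7 and 7, class II antigen presentation to 3, 1 and 2, and cell cycle genes to 7, 1 and 3. At these counts no difference in them was detectable. Class I antigen presentation had 47 UMIs in LPS, 34 in poly(I:C) and 23 in saline, a ratio of 2.41 [1.38 to 4.28] for poly(I:C) over saline and 0.931 [0.554 to 1.61] for LPS. Nlrc5, which is also in the interferon-stimulated list, gave 6 of these UMIs in poly(I:C) and 0 in saline. Glucocorticoid-induced genes had 119, 20 and 33 UMIs, a ratio of 1.64 [1.11 to 2.5] for LPS over saline and 0.988 [0.537 to 1.77] for poly(I:C). Stress and heat shock genes had 79, 22 and 22 UMIs, a ratio of 1.64 [1.01 to 2.76] for LPS. Innate sensors and receptors had 78, 36 and 34 UMIs, a ratio of 1.73 [1.05 to 2.84] for poly(I:C). This list shares Ifih1, Eif2ak2, Dhx58 and Zbp1 with the interferon-stimulated list, so the ratio is not separate from the interferon result. Ifih1 had 8 UMIs in poly(I:C) against 1 in saline and Eif2ak2 5 against 0. A ratio without the shared genes was not computed. The ratios of immediate early genes (31, 11 and 10 UMIs), clock genes (105, 39 and 52 UMIs) and cholesterol and lipid synthesis genes (284, 68 and 122 UMIs) had intervals that included 1 for both treatments over saline.

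Outside the interferon response, the lists of stage genes summed to values near those of saline under poly(I:C). The committed list summed to 1.01 [0.945 to 1.09] of saline, the myelin list to 1.01 [0.889 to 1.15] and the precursor list to 1.09 [0.878 to 1.36], and 0 of 15, 1 of 18 and 0 of 11 of their genes were 2-fold higher, against 9.34% of all genes. How many of their genes were 2-fold lower, as 12.0% of all genes were, is not reported here. The committed sum includes Enpp6, Gpr17, Bmp4, Neu4, Bcas1, Fyn and Tmem163, by which the nuclei were chosen, and the precursor sum includes Pdgfra, which had to be 0. These sums were therefore partly set by the rule, whereas the counts left the gate genes out. Agmo, which cleaves ether lipids, had 18 UMIs in 13 LPS nuclei, 18 in 12 poly(I:C) nuclei and 0 in 43 saline nuclei, and was at least 9.78-fold higher in poly(I:C) and at least 2.73-fold in LPS than in saline. In LPS it stood at 1.22 with at least 3 commitment UMIs and at 1.58 with at least 500 genes per nucleus, below 2-fold, and in poly(I:C) at 6.09 with at least 500 genes. Precursor nuclei had it at 3.82 and mature nuclei at 1.83 times saline under poly(I:C). The metabotropic glutamate receptor Grm7 had 44 UMIs in poly(I:C) against 25 in saline, a ratio of 2.87 [1.72 to 4.89]. Lower in poly(I:C) were Mdga2, a synaptic adhesion gene, with 12 against 59 UMIs (0.331 [0.162 to 0.623]), the ephrin receptor Ephb1 with 11 against 50 (0.359) and the cadherin Cdh13 with 4 against 27 (0.241). Lrrtm3, Rap1gds1 and Stard13 had 0 UMIs in poly(I:C) against 12 in saline.

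Under LPS, none of the interferon-stimulated genes reached 10 UMIs over both libraries, and the clearest higher genes were Prex2 and St6galnac3. Of 2148 genes with at least 10 UMIs, 278 (12.9%) were at least 2-fold higher in LPS and 202 (9.4%) at least 2-fold lower, and the interval left out 1 for 51 (2.37%) and 73 (3.4%), with a median difference of log2 0.09. Prex2, a guanine exchange factor for Rac, was the most clearly higher, with 118 UMIs in 16 of 58 LPS nuclei against 5 UMIs in 4 of 43 saline nuclei, a ratio of 10.8 [4.48 to 33.7]. The poly(I:C) library had 21 UMIs in 5 of 24 nuclei, 6.85 times saline [2.51 to 23.2], and 2.06 times without nuclei that held markers of other cell types. Prex2 was also higher than saline in LPS precursor nuclei (1.81 [1.21 to 2.78]), mature nuclei (4.27 [3.82 to 4.79]) and excitatory neuron nuclei (1.77 [1.26 to 2.54]). The sialyltransferase St6galnac3 had 59 UMIs in LPS against 4 in saline (6.72 [2.49 to 25.5]), Grm3 55 against 8 (3.13 [1.48 to 7.62]), Pex5l 73 against 11 (3.02 [1.59 to 6.32]), the semaphorin Sema3d 50 against 6 (3.80 [1.63 to 10.8]) and Pcdh15 88 against 16 (2.51 [1.46 to 4.58]). Pcdh15 stood at 1.34 without nuclei that held markers of other cell types and at 4.61 among nuclei with at least 500 genes. With at least 3 UMIs of the commitment genes required, St6galnac3 stood at 2.19 and Grm3 at 1.22 times saline. The adaptor protein Ywhaq (21 against 0 UMIs), the kinase Fer (16 against 0) and Mccc2 of leucine breakdown (15 against 0) were at least 3.19, 2.43 and 2.28-fold higher in LPS. These bounds did not hold at 2-fold in every alternative: Ywhaq stood at 1.71 with 3 commitment UMIs, at 1.97 with at least 500 genes and at 1.96 without nuclei holding mature genes. Fer stood at 1.22 with 3 commitment UMIs and at 1.48 with at least 500 genes, and Mccc2 at 1.28 with at least 500 genes and at 1.97 with at most 1 neuronal UMI. Among myelin genes 5 of 25 were at least 2-fold higher in LPS and 0 lower, including Mog (18 against 3 UMIs), Car2 (11 against 1) and Hapln2 (12 against 1), and the list summed to 1.15 [1.05 to 1.26] of saline. The intervals of these 3 ratios included 1. Mog and Hapln2 also belong to the mature gate.

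**Figure D4:**
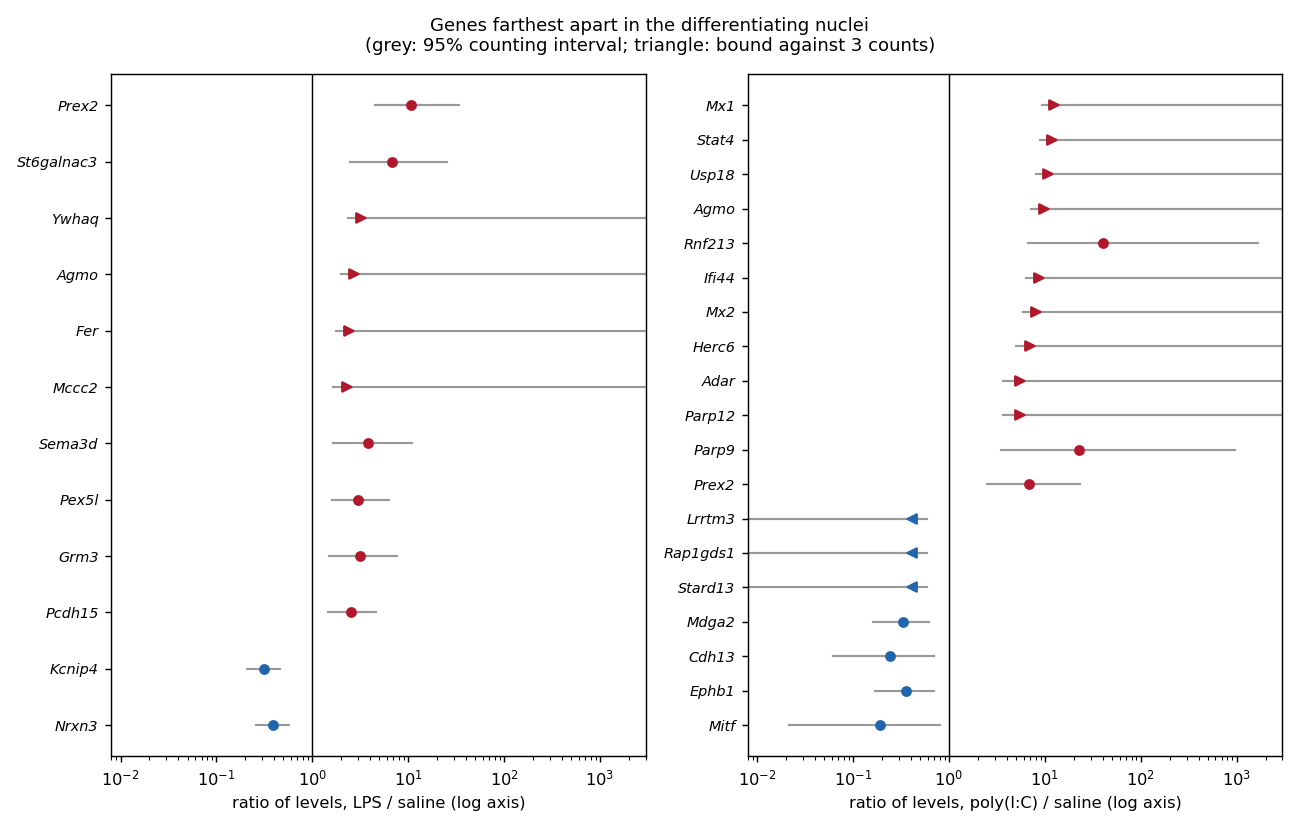
Ratio of LPS to saline and of poly(I:C) to saline (log axis) in differentiating nuclei, for the genes given in the text among those whose 95% counting interval lay farthest from 1. Points carry that interval, triangles mark bounds against a library with 0 UMIs, and the poly(I:C) genes at the top are mostly interferon-stimulated.

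Prex2 (log2 -1.66), Grm3 (-2.25) and Pex5l (-1.82), all higher in LPS, were lower in differentiating than in mature nuclei. The differentiating nuclei were therefore parted, after the values were seen, by whether they held at least 2 UMIs of Mog, Mag, Aspa, Opalin, Ermn and Hapln2. This held for 20 of 58 nuclei in LPS (34.5%), 5 of 24 in poly(I:C) (20.8%) and 10 of 43 in saline (23.3%), with medians of 1393.5, 1155 and 874 UMIs, against 1162, 608 and 644 UMIs in the rest. In LPS these 20 nuclei held 103 of the 118 Prex2 UMIs (3724 CPM, against 338 CPM in the other 38), 52 of 59 UMIs of St6galnac3 (1880 against 158 CPM) and 47 of 55 of Grm3 (1700 against 181 CPM). They had Frmd4a at 18477 CPM against 27192 CPM and Bcas1 at 5315 CPM against 11689 CPM, and Enpp6 at 1519 CPM against 2144 CPM. A UMI of Frmd4a was found in 13 of these 20 LPS nuclei and in 37 of the other 38. In poly(I:C) it was found in 5 of 5 and 18 of 19, and in saline in 10 of 10 and 31 of 33. Without such nuclei in any library, Prex2 stood at 2.67 times saline in LPS (15 against 3 UMIs), St6galnac3 at 1.25 (7 against 3) and Grm3 at 0.535 (8 against 8). The ratio of Grm3 fell below 1, but its levels had overlapping intervals (77.9 to 356 CPM in LPS, 146 to 665 CPM in saline). No reversal is shown at these counts. In poly(I:C) the 5 nuclei with mature-gene UMIs also had more Prex2 than the other 19 (1398 against 848 CPM), more St6galnac3 (1258 against 154 CPM, from 9 and 2 UMIs) and more Grm3 (1958 against 462 CPM). In saline the 10 nuclei with mature-gene UMIs and the other 33 had Prex2 at 220 and 127 CPM, St6galnac3 at 110 and 127 CPM and Grm3 at 0 and 338 CPM, from at most 8 UMIs a gene, so the higher level in nuclei with mature-gene UMIs was not seen there for St6galnac3 and Grm3. The interferon-stimulated list stood at 48.5 times saline in poly(I:C) without them. Mbp was high in the rest too, with 4423, 5164 and 4304 CPM in the LPS, poly(I:C) and saline nuclei that held fewer than 2 UMIs of the mature genes.

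**Figure D5:**
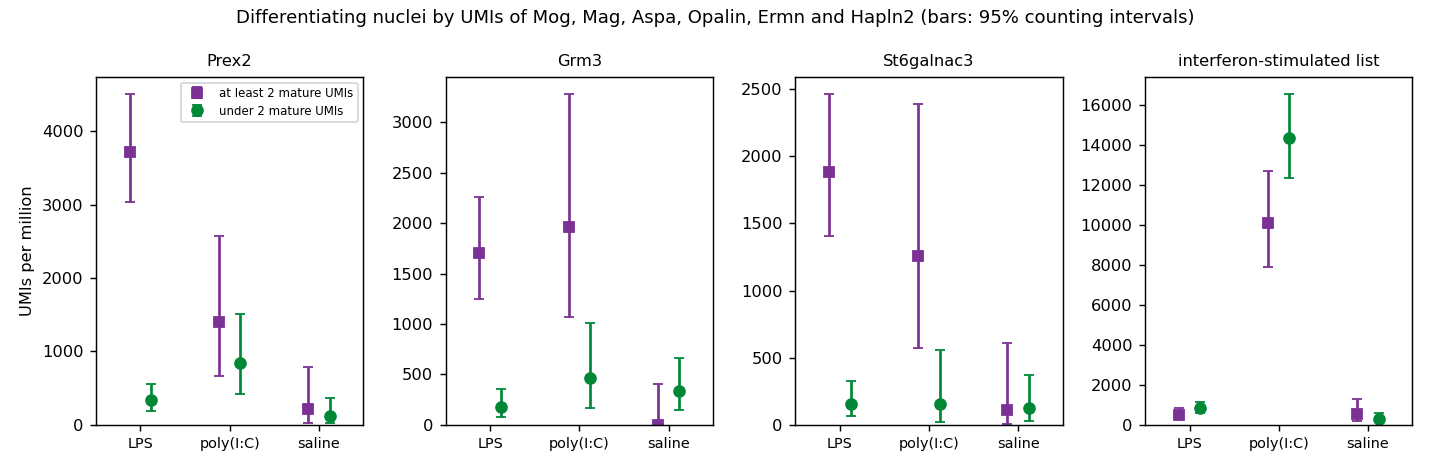
Levels (CPM) of Prex2, Grm3, St6galnac3 and the interferon-stimulated list in differentiating nuclei with at least 2 and with fewer than 2 UMIs of the 6 mature genes, by library. In LPS the first 3 stand higher in the nuclei with mature-gene UMIs, while the interferon list is high in poly(I:C) in both.

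Of all lists, ion channels and transmitter receptors had the most genes lower in LPS. The list had 3 of 27 genes at least 2-fold higher and 10 lower (median log2 -0.65) and summed to 0.833 [0.753 to 0.922] of saline. The channel-interacting Kcnip4 had 46 UMIs in LPS against 67 in saline (0.313 [0.210 to 0.462]). The synaptic gene Nrxn3 had 50 against 59 UMIs (0.386 [0.260 to 0.573]). Pan-neuronal markers, of which Kcnip4 is one, stood at 8795 CPM in LPS, 13266 CPM in poly(I:C) and 13140 CPM in saline differentiating nuclei, and their part in these ratios was not tested. With at most 1 UMI of Syt1, Snap25 and Rbfox3 allowed, Kcnip4 stood at 0.324 and Nrxn3 at 0.602 of saline, and with 5% free RNA subtracted Kcnip4 stood at 0.0423. The ratio of LPS to saline for Kcnip4 was 0.352 in precursor, 0.427 in mature and 0.924 in excitatory neuron nuclei. The precursor list summed to 1.42 [1.22 to 1.67] of saline in LPS, with 2 of 13 genes higher and 0 lower, against 12.9% and 9.4% of all genes. The committed list summed to 0.900 [0.854 to 0.95]. As under poly(I:C), these sums include genes by which the nuclei were chosen and were partly set by the rule.

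Set directly against poly(I:C), LPS differentiating nuclei had 287 of 1937 genes (14.8%) at least 2-fold higher and 189 (9.76%) lower, with intervals that left out 1 for 19 (0.981%) and 46 (2.37%). All 9 measured interferon-stimulated genes were lower in LPS, among them Mx1 (0 against 23 UMIs), Usp18 (1 against 20, 0.0140) and Rnf213 (4 against 25, 0.0447), and so was Stat4 (10 against 22, 0.127). The 9 genes had at least 10 UMIs in poly(I:C) alone, so they met the minimum through the library where they are high. Higher in LPS were the transcription factor gene Mitf with 50 against 2 UMIs (6.99) and Sox6 with 132 against 15 (2.46). The ratio for Sox6 was 6.85 among nuclei with at least 500 genes and 5.17 after thinning to 500 UMIs. Mitf had 17 UMIs in saline and Sox6 stood at 1372 CPM there, so the poly(I:C) library was the low one for both genes. Comparisons of LPS and of poly(I:C) with saline share the saline nuclei, so that their ratios are not independent of each other.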

How the data were processed

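Whole-brain nuclei were profiled with the 10x Genomics 5′ kit, and the deposited values are raw counts, 1 per gene and nucleus, without normalization, from Cell Ranger 7.0.0 per the file headers, with build mRatBN7.2 per the submitters' processing notes. How introns were counted, which annotation was used and how cells were called are not given in the sources used here. In this work 30560 features were summed to 28370 names, and every deposited barcode was kept (51647). No doublet caller was run. Nuclei were gated on raw counts as described, and counts were summed per gate and library. There were 0 columns of other samples.

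The differentiating, precursor and mature sums (9 in all) were compared with edgeR 4.0.16 in R 4.3.3 (quasi-likelihood test, TMM scaling, library as block, Benjamini-Hochberg adjustment, threshold 0.05), leaving out all 23 gate genes. The library block is the pairing: sums of the 3 gates come from the same 3 libraries, each a pool of 4 rats. Treatments, with 1 library each, were compared by ratios of CPM with exact conditional intervals (scipy 1.17.1, Python 3.11.15). A gene needed 10 UMIs over both libraries and counted as apart at 2-fold, and 0 was set to a floor of 3 counts. Depth was 20126 to 71971 UMIs per library of differentiating nuclei.

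Treatment genes named were the 12 higher and 12 lower with the interval farthest from 1 and UMIs in at least 5 nuclei, and list genes at least 2-fold apart. Class genes named were the 10 higher and 10 lower with the smallest adjusted p, and genes of the oligodendrocyte lists. The nuclei, lists (21 gene lists, 17 marker lists, of which 41 genes and 11 markers matched no feature) and tests were chosen with earlier results of these data known. Alternatives covered count minimums, added counts, scaling, stricter gates, thinning, free RNA, DESeq2 1.42.0 and leaving out libraries. Ratios and intervals were tested on simulated counts. Some genes that meet these rules are not reported here. Chromosome positions of the files' build are not used here.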

Additional observations from a re-analysis of the deposited data

How the results depend on the processing

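No paired analysis was possible because each treatment has 1 library, so the treatment ratios have no replicate block, and the library block in the comparisons of gates was tested by leaving it out. Without the block, 290 genes were higher and 281 lower than in precursors, 216 higher and 166 lower than in mature nuclei, and 15 higher and 7 lower in Enpp6 than in Gpr17 nuclei. Leaving out 1 library gave 220 to 330 higher and 212 to 398 lower against precursors, 203 to 276 and 159 to 234 against mature nuclei, and 0 to 11 and 0 to 6 between Enpp6 and Gpr17 nuclei. The lowest counts against precursors (220 and 212) came without the LPS library. Without the LPS and without the saline library 164 and 159 genes were lower than in mature nuclei. Between Enpp6 and Gpr17 nuclei the highest counts (11 and 6) came without poly(I:C), with 0 lower without LPS and 3 without saline. With no filter on low counts 541 genes were lower than in precursors and 464 lower than in mature nuclei, and DESeq2 called 161 lower than in mature nuclei. Between Enpp6 and Gpr17 nuclei no filter gave 11 higher and 0 lower, and DESeq2's size factors 2 and 2. A stricter neuronal limit could not be fitted there because a library had no Gpr17 nucleus. Named genes that missed the threshold and changed sign were Pex5l against precursors (-0.30 to 0.84 with a library left out) and, against mature nuclei, Pcdh15 (-0.12 to 0.89), Dscam (-0.51 to 0.18) and Fa2h (-0.19 to 0.33, 0.051 in DESeq2, 0.022 without the block). With at most 1 UMI of the neuronal genes Cldn11 was at -0.075, Mbp at -0.065 and Dscam at 0.23 against mature nuclei, and Mbp was at -0.11 with no filter.

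Counts of genes 2-fold apart moved with the minimum and the gate, and the cause was not tested. For LPS over saline they were 542 higher and 560 lower at 5 UMIs, 39 and 20 at 30 UMIs, 157 and 103 with 3 commitment UMIs, 125 and 84 after thinning to 500 UMIs, and 133 lower with 2 counts added. For poly(I:C) over saline they were 420 and 398, 6 and 10, 39 and 44, 64 and 83, and 58 and 79 in the same order, and 83 lower with at most 1 neuronal UMI. For LPS over poly(I:C) they were 726 lower at 5 UMIs, 46 and 11 at 30, 76 and 103, 125 and 68 after thinning, 117 lower with 2 counts added, 141 higher with free RNA subtracted, 112 lower with at most 1 neuronal UMI, and 172 and 120 without nuclei holding mature genes. Under poly(I:C) the median log2 ratio of the interferon-stimulated list was 2.44 at 5 UMIs and 2.42 with at most 1 neuronal UMI, and had no value at 30 UMIs or with 3 commitment UMIs. It had none under LPS, where 0 list genes reached 10 UMIs. Its summed ratio was 80.5 with free RNA subtracted. The LPS share over saline was 7.74 after thinning, 4.84 with at least 500 genes per nucleus, and 0.677 per lineage nucleus. The interval of the last ratio, given above, includes 1, so no reversal is shown. Thinning and the gene minimum left out shallower nuclei, and the differentiating nuclei of poly(I:C) and saline were shallower than those of LPS. Single genes whose ratio crossed 1 were Grm3 in LPS over saline (0.535 without nuclei holding mature genes, from 8 UMIs in each library) and, in LPS over poly(I:C) with 3 commitment UMIs, Slc12a2 (0.715), Stard13 (0.511), Ecpas (0.613), AABR07031491.2 (0.817), Prkcb (0.664, and 0.971 with at least 500 genes) and Grik4 (0.817). The summed ratios of the interferon list, the alternative without the richest nucleus and the one without mature genes were added after seeing the data. Of the remaining results under alternatives, 113 counts, shares and list values and 1900 values of single genes kept their direction and stayed near the main value (treatment ratios, within its counting interval or 1.5 times of it, so some crossed 2-fold, such as Mccc2 at 1.97 and Sox10 at 1.64 in LPS over saline with at most 1 neuronal UMI) or on the same side of the adjusted p threshold (gates). A further 50 single-gene ratios moved by more, 99 single-gene calls between gates were lost and 11 were gained. The poly(I:C) differentiating nuclei hold 20126 UMIs in all, and each treatment has 1 library.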
